A study of Arabidopsis thaliana with 12 samples.

Results

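RNA of whole Arabidopsis thaliana embryo cells was compared with RNA of whole-embryo nuclei on 6 of the 12 arrays of the series, 3 for each kind of RNA. The arrays were chosen by their titles alone. All plants were ecotype Col-0 under a long-day cycle (16 h light, 8 h dark). The cell arrays hold RNA of embryos at the 8- to 32-cell stage that had been pressed from the ovules, rinsed and lysed for RNA with a PicoPure kit, and no marker line is named for them. The nuclear arrays hold RNA of embryos at the 2- to 16-cell stage, from ovules fixed in 0.1% paraformaldehyde, with nuclei isolated by a CelLytic PN kit and RNA taken up in a buffer with proteinase K. Per the series' design text the nuclei came from marker lines and were sorted by flow cytometry on a tissue-specific marker, whose promoter is not named there, so the nuclear plants also carried a marker transgene. RNA fraction, sorting, marker line, embryo stage, fixation and extraction therefore changed together, and their parts in any difference cannot be told apart. The titles call the 3 arrays of a group biological replicates. The other 6 arrays, 3 of proembryo nuclei and 3 of suspensor nuclei at the 2- to 16-cell stage, were prepared like the whole-embryo nuclei and are used below only to show where their levels lie.

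A nucleus holds newly made transcripts, precursors that are being spliced and mRNA that awaits export, whereas the RNA of a whole cell is mostly cytoplasmic. Export and cytoplasmic turnover shape the cellular pool, and mitochondria and plastids, which keep genomes of their own, lie in the cytoplasm. In the young embryo the apical proembryo gives rise to most of the seedling, and the suspensor links it to the maternal tissue. The embryo is enclosed by endosperm and by the seed coat, whose inner layer makes tannins.

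The values are array intensities that the authors had scaled to the same trimmed mean on each array, so a gene that is higher in cells is higher relative to the rest of the RNA on its array. Differences are given as cells minus nuclei on the scale log2(intensity + 16), which understates the change of dim genes. Standard errors (SE) and adjusted p-values come from limma with Benjamini-Hochberg adjustment over 11867 probe sets, each above its array's median on at least 3 of the 6 arrays, and the threshold was an adjusted p of 0.05. The deposited values carry no detection call. Gene lists, apart from organelle-encoded genes and a range on chromosome 2, hold only genes with a symbol in the annotation. Their numbers on the array are therefore not those of whole families. In these bulk samples, fewer cells of a type and less RNA per cell cannot be told apart.

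Array 3 of the cells correlated with array 1 at r = 0.855, against 0.904 to 0.932 for the other pairs within a group and 0.759 to 0.875 between a cell array and a nuclear array. The 25S rRNA control had an intensity of 9514 ± 1160 on the cell arrays and 22150 ± 1940 on the nuclear arrays (SD, n = 3 each, exact two-sided permutation p = 0.1, the smallest that 3 against 3 allow). The mean log2 signal of the hybridisation controls, which are spiked in at fixed amounts, was 11.66 ± 0.147 and 12.37 ± 0.558 (SD, n = 3 each, exact p = 0.1). For actin, GAPDH and ubiquitin, 3′ probe sets, compared with 5′ ones as a sign of RNA quality, read far higher on every array of both groups. The excess, in log2 units, was 4.1 to 4.9 for actin, 6.9 to 8.0 for GAPDH and 4.2 to 4.9 for ubiquitin. Between the groups it had exact p-values of 0.3 to 0.7, which do not show that the RNA was sound. The part of the control differences and of the 3′ excess in the results was not tested.

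The markers at hand say little about the labelled tissue. Most of the markers planned could not be matched by name to a probe set. Only 2 embryo markers were matched and measured, and neither passed the threshold. BBM, an AP2 factor of early embryos, stood at 7.66, 8.25 and 9.40 in cells 1, 2 and 3 and at 7.89, 7.78 and 7.41 in the nuclei. PHV, a factor of the upper side of leaf primordia, stood at 7.44, 7.65 and 8.07 against 4.48, 7.72 and 8.45. Of 7 endosperm markers matched 2 were measured, AGL80 (0.29, SE 0.25) and IKU1 (0.35, SE 0.43). The summed intensity of the list was 517 to 560 on the cell arrays and 328 to 517 on the nuclear arrays. All 5 seed coat markers that could be matched were measured and none passed, with a median of 0.05. They did not move together: SAG29, a sugar transporter, differed by -0.69 (SE 0.26) without overlap between the groups, INO, a factor of outer integument growth, by -0.70 (SE 0.36), SWEET11 by 0.05 (SE 0.43) and DFR, another tannin enzyme, by 0.26 (SE 0.36). BAN, an enzyme of tannin synthesis in the seed coat, stood at 14.03, 13.81 and 12.23 in cells against 12.65, 12.87 and 12.85 in nuclei. The summed intensity of the seed coat list was 21210, 18580 and 6631 on cell arrays 1, 2 and 3 against 9354, 10630 and 10080 on the nuclear arrays, so cell array 3 lay below all nuclear arrays and the other cell arrays above them. BAN and DFR carry most of this sum, and SAG29, at 7.36, 6.94 and 7.46 in cells, was highest on cell array 3. DME, a DNA glycosylase of the central cell, differed by -0.07 (SE 0.29), and the summed pollen markers, none of which was kept, read 53.1 to 80.5 in cells and 89.1 to 148 in nuclei. The part of such tissues in the results was not tested.

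Cellular and nuclear RNA differed at 803 of the 11867 probe sets (6.77%). Of these 322 were higher in cells (2.71%) and 481 were lower (4.05%), while the median over all probe sets was 0.01. The arrays of both groups did not overlap at 3394 probe sets (28.6%). Of the 803 calls 773 reached 2-fold, and 21 rose and 25 fell at least 8-fold. With 3 arrays a group smaller differences seldom pass, so the calls do not show how common small differences are. By name, 417 of the called probe sets stood for 1 gene, 33 for several, and 353 had no gene in the annotation at hand. With 1 probe set for each of 6488 named genes, 414 (6.38%) passed, of which 158 were higher (2.44%) and 256 lower (3.95%).

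**Figure D1:**
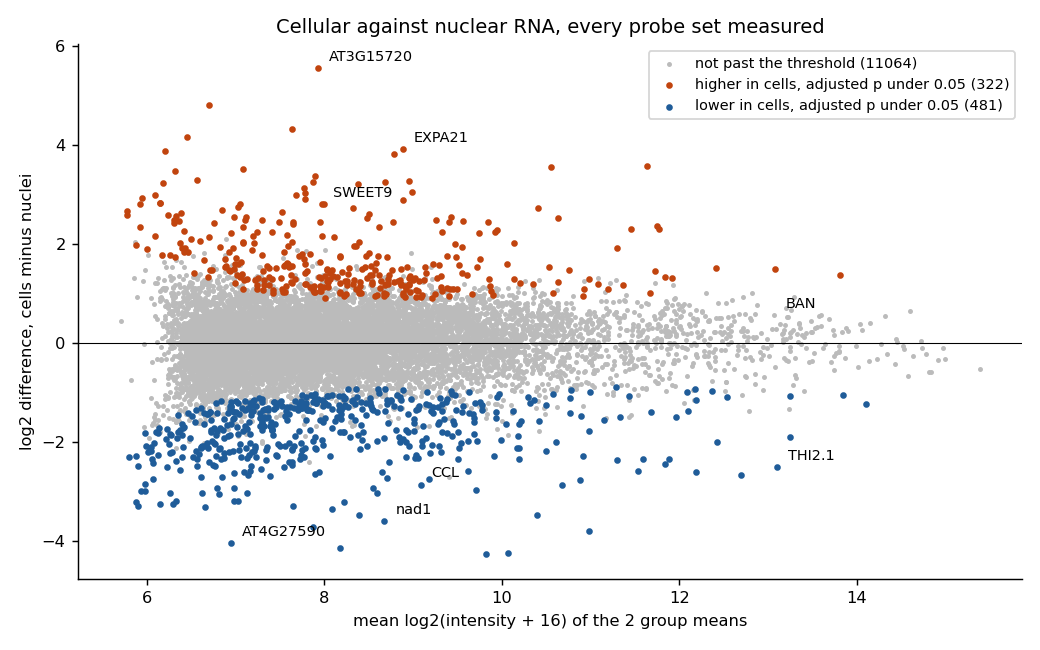
Difference between cellular and nuclear RNA (log2, cells minus nuclei) against the mean level of both groups (log2(intensity + 16)) for 11867 probe sets, with 322 called higher in red, 481 called lower in blue and the others in grey. Called probe sets occur at all levels, and BAN, at 0.57, did not pass.

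The called genes kept their direction when the other nuclei were set beside the cells. The 322 higher probe sets had a median difference of 1.49 from whole-embryo nuclei, 1.46 from proembryo nuclei and 1.3 from suspensor nuclei, with the same direction at 322 and 319 of them. For the 481 lower probe sets the medians were -1.68, -1.57 and -1.50, with the same direction at 480 and 471. These comparisons share the 3 cell arrays, so the agreement is no separate evidence. Of the genes named by the rule, 9 no longer passed against proembryo nuclei (adjusted p of 0.0702 to 0.356), namely RALFL18, 3xHMG-box1, POLA3, TPLATE, ATL8, UBC16, TET8, IQD24 and clpP, with the difference down to -1.37 for RALFL18, 0.86 for POLA3 and -0.67 for TET8. AGL57 and TPLATE no longer passed with all 12 arrays in the fit (adjusted p = 0.105 and 0.0904). Among the further genes described below, RALFL22, CLE41, AT2G07777, AT2G07722 and rps19 did not pass against proembryo nuclei (adjusted p of 0.0711 to 0.135), nor rps19 and nad5 with all 12 arrays (adjusted p = 0.192 and 0.0509). The cell arrays lay outside all 9 nuclear arrays at 248 of the higher calls and 334 of the lower calls, and at 12% of all probe sets. Among the cell arrays, the lower calls stood furthest from the nuclear mean on array 3 (median -1.95, against -1.36 on array 1 and -1.58 on array 2), whereas the medians of the higher calls were 1.47, 1.54 and 1.54.

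Among symbol-bearing genes the largest rise in cells was that of EXPA21, an expansin, a class of proteins that loosen cell walls. It stood at 11.16, 10.66 and 10.71 in cells and at 5.81, 7.71 and 7.29 in nuclei, a difference of 3.91 (SE 0.42, adjusted p = 0.000694, 15.0-fold). All 3 cell arrays lay more than 2 log2 units above the highest of the 9 nuclear arrays. SK16, an SKP1-like component of ubiquitin ligases, read 9.43, 8.73 and 8.36 against 6.05, 5.42 and 4.49, a difference of 3.52 (SE 0.42, adjusted p = 0.00116). SWEET9, a sugar transporter known from nectaries, read 9.0, 8.88 and 10.25 against 6.74, 6.21 and 6.74, a difference of 2.81 (SE 0.36, adjusted p = 0.00167). Cell array 3 was the highest for SWEET9 and the lowest for SK16. Neither gene's groups overlapped, which the rule for naming these genes required. TET10, a tetraspanin of cell membranes, read 9.34, 9.44 and 10.47 against 7.16, 7.13 and 7.37 and rose by 2.53 (SE 0.32, adjusted p = 0.00157). EXPA21, SWEET9 and TET10 also passed in all 6 refits with 1 array left out. SK16 lay above the array median on the cell arrays only. It was therefore measured, and passed, only in the 3 refits without a nuclear array, and leaving out a cell array was not tested for it.

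NOL, a chlorophyll b reductase, stood at 9.43, 9.08 and 8.65 in cells and at 7.35, 6.90 and 7.64 in nuclei, a difference of 1.76 (SE 0.30, adjusted p = 0.00601). MPC, a maternally expressed gene related to poly(A)-binding proteins, read 9.53, 9.59 and 8.83 against 7.13, 7.72 and 7.22 and rose by 1.96 (SE 0.29). SCPL45, a serine carboxypeptidase-like protein, read 9.87, 10.37 and 10.80 against 8.47, 8.85 and 8.53 and rose by 1.73 (SE 0.29). The rule for naming these 3 genes required groups that lay apart, and the gap was more than 1 log2 unit in each. ZW9, with a difference of 2.43 (SE 0.38), and NCRK, a receptor-like kinase with 2.60 (SE 0.54), were dim in nuclei, and the value of NCRK was 1.39 with a pseudocount of 64 and 4.04 with a pseudocount of 1. Both lay above the array median on the cell arrays only, so they were measured, and passed, only in the 3 refits without a nuclear array. SDT, an acyltransferase that makes disinapoyl spermidine, rose by 2.68 (SE 0.57, adjusted p = 0.0187). Its suspensor nuclei read 6.2, 7.94 and 7.35, of which the highest lay above cell arrays 1 and 2, at 7.63 and 7.85. AGL57, a MADS-box factor, and scpl47 rose by 1.78 (SE 0.40) and 1.77 (SE 0.44). The call of SDT and of AGL57 was lost without nuclear array 1, nuclear array 3 or cell array 2 (adjusted p up to 0.08 and 0.12), and that of scpl47 without any 1 nuclear array or cell array 2 (up to 0.155), with differences of 2.07 to 3.28, 1.55 to 2.21 and 1.31 to 2.32 over all refits.

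The lower calls included genes of small secreted proteins. THI2.1, a thionin, a small antimicrobial protein, stood at 12.54, 12.27 and 10.73 in cells and at 14.28, 14.42 and 14.37 in nuclei, a difference of -2.51 (SE 0.40, adjusted p = 0.00474). Its nuclear arrays differed by little, and its cell arrays spread over nearly 2 log2 units. CCL, known for a short-lived mRNA, read 8.28, 7.35 and 7.34 against 10.22, 10.51 and 10.83, a difference of -2.86 (SE 0.32, adjusted p = 0.000792). Its level was higher still in proembryo nuclei (11.28 ± 0.38, SD, n = 3) and suspensor nuclei (12.45 ± 0.23). LCR69, a defensin-like peptide, read 9.92, 7.64 and 7.10 against 11.07, 11.26 and 11.27, a difference of -2.98 (SE 0.56, adjusted p = 0.0108). Cell array 1 stood apart from the other cell arrays, and the call was lost without any 1 nuclear array or cell array 2, with differences of -3.83 to -2.42 and adjusted p up to 0.0737. BAN, DFR and SWEET11 of the 5 seed coat markers, but not SAG29 and INO, were lowest among the cells on array 3, as were THI2.1 and LCR69, and the part of such tissue was not tested.

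**Figure D2:**
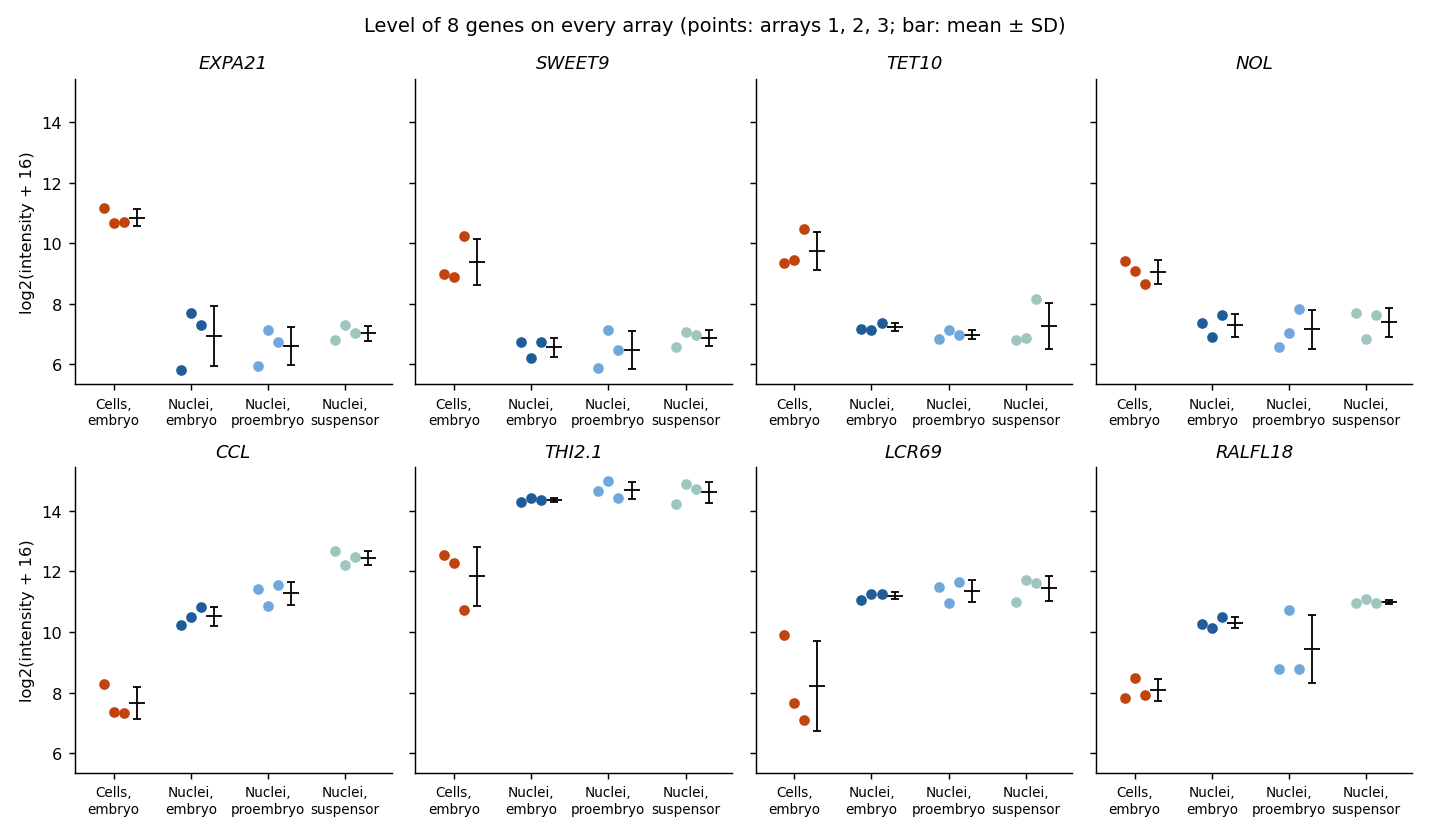
Level (log2(intensity + 16)) of 8 genes on each array of whole-embryo cells and of whole-embryo, proembryo and suspensor nuclei, with the mean and SD of 3 arrays beside the points. EXPA21, SWEET9, TET10 and NOL are higher in cells than on all 9 nuclear arrays, and CCL, THI2.1, LCR69 and RALFL18 are lower.

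Among the other lower calls was ARL, an ARGOS-like gene that promotes organ growth. It stood at 9.23, 8.43 and 7.36 in cells and at 10.99, 10.35 and 10.69 in nuclei, a difference of -2.34 (SE 0.41, adjusted p = 0.00751). GH3.3, an enzyme that joins auxin to amino acids, read 8.71, 8.53 and 6.30 against 11.11, 9.78 and 9.66, a difference of -2.33 (SE 0.58, adjusted p = 0.0371). CYP78A9, a cytochrome P450 that affects fruit and seed size, read 6.13, 5.94 and 5.21 against 8.54, 7.90 and 7.53 and fell by 2.23 (SE 0.37, adjusted p = 0.00585). In all 3 genes the lowest cell array was array 3. The groups did not overlap, which the rule for naming these genes required. The call of ARL was lost without nuclear array 1 or 3 (adjusted p up to 0.0547, differences of -2.79 to -1.85), and that of GH3.3 without any 1 nuclear array or cell array 2 (up to 0.165, -2.77 to -1.56). ARPN, a plantacyanin, fell by 2.26 (SE 0.40) and lost its call without nuclear array 2 or 3 (adjusted p up to 0.0652, differences of -2.73 to -1.92). WSD1, a wax ester synthase, differed by -2.18 (SE 0.32), and iqd33, of a family of calmodulin-binding proteins, by -3.06 (SE 0.49). RXF26 differed by -2.57 (SE 0.42, and by -1.59 with a pseudocount of 64) and scpl41 by -2.49 (SE 0.53, and by -1.55). The call of scpl41 was lost without any 1 nuclear array or cell array 2 (adjusted p up to 0.0948, differences of -3.18 to -2.07). CYP78A9, WSD1, iqd33 and RXF26 lay above the array median on the nuclear arrays only. They were measured, and passed, only in the 3 refits without a cell array.

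Genes known in the annotation only by locus tag, for which no role is given here, included the largest rise and the largest fall among the named genes. AT3G15720 stood at 10.34, 10.36 and 11.41 in cells and at 4.14, 5.88 and 5.43 in nuclei, a difference of 5.55 (SE 0.44, adjusted p = 0.000202). AT5G22810, AT5G07260 and AT2G43660 were higher in cells by 4.32 (SE 0.50), 4.15 (SE 0.36) and 3.82 (SE 0.37). AT5G07260 was the dimmest of these genes in nuclei (mean 4.37), and its value was 2.60 with a pseudocount of 64 and 6.11 with a pseudocount of 1. AT4G27590 read 5.48, 4.51 and 4.77 against 9.50, 8.24 and 9.18, a difference of -4.05 (SE 0.39, adjusted p = 0.000347). AT2G28680 read 8.27, 9.09 and 8.61 against 12.29, 12.34 and 11.77, a difference of -3.47 (SE 0.29, adjusted p = 0.000202). AT1G71695 and AT4G21630 were lower by similar amounts, -3.48 (SE 0.50) and -3.81 (SE 0.65), with cell levels that ran from 5.50 to 8.01 and from 7.13 to 10.57. Without nuclear array 3 the adjusted p of AT4G21630 was 0.0572, with differences of -4.56 to -2.84 over all refits. AT3G15720, AT5G22810 and AT5G07260 lay above the array median on the cell arrays only, and AT4G27590 on the nuclear arrays only. Each was measured, and passed, only in the 3 refits without an array of its lower group. Leaving out an array of its higher group was not tested.

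Several transcripts encoded in the mitochondrial genome were lower in cells. Of 16 such genes on the array 11 were measured, and 5 of them (45.5%) were called lower, none higher, with a median difference of -1.49 beside -0.01 over all genes and 3.95% of them called lower. nad1, a subunit of respiratory complex I, stood at 7.13, 7.35 and 6.15 in cells and at 11.23, 10.07 and 10.14 in nuclei, a difference of -3.60 (SE 0.39, adjusted p = 0.000694, 12.1-fold). Its other probe sets differed by -0.93 (SE 0.38, adjusted p = 0.17) and -1.44 (SE 0.35, adjusted p = 0.0343), so the size varied between probe sets of the same gene. ccb452, which serves the maturation of cytochrome c, read 7.90, 6.94 and 6.39 against 10.86, 9.45 and 9.73, a difference of -2.94 (SE 0.43, adjusted p = 0.00332). nad9, also of complex I, read 7.27, 6.61 and 5.30 against 9.39, 8.33 and 8.70, a difference of -2.42 (SE 0.45, adjusted p = 0.0108). In all 3 genes nuclear array 1 was the highest, and no cell array reached a nuclear one, a lack of overlap seen at 28.6% of all probe sets.

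nad4L (-2.08, SE 0.40) and nad5 (-1.40, SE 0.33), complex I subunits as well, passed the threshold, chosen for mention after their values were seen. The calls of nad9 and nad4L and of nad5 were each lost in 2 to 4 of the 6 refits with 1 array left out (nad9 without nuclear array 1 or 3, nad4L without nuclear array 1 or cell array 2, nad5 without any 1 nuclear array or cell array 2), with adjusted p up to 0.0748, 0.0769 and 0.156 and differences of -2.86 to -1.87, -2.32 to -1.70 and -1.63 to -1.13. cox1 and cox2, subunits of cytochrome c oxidase, differed by -0.58 (SE 0.36) and -1.49 (SE 0.58), below the threshold, and ccb382 by 0.11 (SE 0.31). The summed intensity of the list was 2219, 1641 and 1196 on the cell arrays against 9416, 4225 and 5374 on the nuclear arrays (exact p = 0.1). The list's median ran from -1.85 to -1.22 and its count of lower calls from 2 to 7 over the refits with 1 array left out, while the filter that asked for all 6 arrays left few members, a median of -0.36 and no call.

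In Col-0 the nuclear chromosome 2 carries a copy of the mitochondrial genome, nearly identical in sequence, so a probe set for one may read the other. Of 33 loci on the array between AT2G07660 and AT2G07829, a range chosen after the mitochondrial values were seen, 7 were measured, all 7 values were negative and 4 passed the threshold, with a median of -1.33 beside -0.01 and 3.95% called lower over all genes. AT2G07741 stood at 7.87, 8.21 and 7.60 in cells and at 10.83, 9.63 and 10.18 in nuclei, a difference of -2.32 (SE 0.33, adjusted p = 0.00262). AT2G07777, AT2G07722 and AT2G07707 also passed, with -1.90 (SE 0.33), -1.33 (SE 0.31) and -1.37 (SE 0.33). Nuclear array 1 or, for AT2G07777, nuclear array 3 was the highest. Their transcripts and those of the organelle cannot be told apart on this array.

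Genes of the nuclear genome that serve respiration, 15 measured, had a median of 0.04 and so did not share this direction as a list. Of them 1 was called higher and 1 lower, beside 2.44% and 3.95% over all genes. MPPBETA, a subunit of the mitochondrial processing peptidase, was higher in cells by 1.28 (SE 0.31, adjusted p = 0.031). NDB4, an external NAD(P)H dehydrogenase, was lower by -1.84 (SE 0.29, adjusted p = 0.00438). NDB4 stood at 8.79, 8.84 and 8.68 in cells and at 10.91, 10.89 and 10.04 in nuclei. The suspensor nuclei, at 9.38, 8.72 and 9.50, reached the level of the cells. The call of MPPBETA was lost without any 1 nuclear array or cell array 2, with differences of 0.97 to 1.45 and adjusted p up to 0.118.

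Plastid transcripts went the other way in part. Of 69 plastid-encoded genes on the array 33 were measured, and 5 (15.2%) were called higher in cells, none lower, with a median of 0.27 beside 2.44% called higher over all genes. atpE, a subunit of the plastid ATP synthase, stood at 12.23, 12.14 and 11.34 in cells and at 9.04, 10.04 and 9.05 in nuclei, a difference of 2.53 (SE 0.35, adjusted p = 0.00245). clpP, a subunit of the Clp protease, read 10.70, 11.22 and 9.59 against 7.28, 8.67 and 8.12, a difference of 2.48 (SE 0.44, adjusted p = 0.00751). The first suspensor array, at 11.81 for atpE and 9.99 for clpP, reached into the range of the cell arrays. rpl22, a ribosomal protein gene, read 7.06, 7.27 and 6.85 against 5.80, 5.31 and 4.75, a difference of 1.77 (SE 0.44, adjusted p = 0.0373).

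The plastid ribosomal protein genes rps19 (1.62, SE 0.34) and rpl36 (1.58, SE 0.40) also passed. All 4 measured genes of the large ribosomal subunit and all 5 of the small one had positive values, with medians of 1.31 and 0.91, and 3 of the 9 passed. The 8 measured genes of photosystem II had a median of -0.08 and the 3 of the NDH complex one of -0.48, and none of them passed. rpoA, which encodes a subunit of the plastid RNA polymerase and lies in one cluster with rpl22, rps19 and rpl36, read 11.15, 10.81 and 10.55 in cells against 12.01, 11.16 and 11.77 in nuclei (-0.81, SE 0.29, adjusted p = 0.121). The summed intensity of the plastid genes was 26020, 25930 and 17310 in cells against 17960, 15800 and 20210 in nuclei (exact p = 0.3), so the groups overlapped in total. Leaving out 1 array gave 1 to 9 higher calls. clpP lost its call without nuclear array 1 or 3 (adjusted p up to 0.0516, differences of 2.11 to 2.94), rpl22 without any 1 nuclear array (up to 0.1, 1.5 to 2.03), rps19 without nuclear array 1, nuclear array 3 or cell array 2 (up to 0.0992, 1.41 to 1.93) and rpl36 without nuclear array 2, nuclear array 3 or cell array 2 (up to 0.145, 1.19 to 2.1). rpl22 lay above the array median on the cell arrays only. It was measured only in the 3 refits without a nuclear array and passed in none of them.

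**Figure D3:**
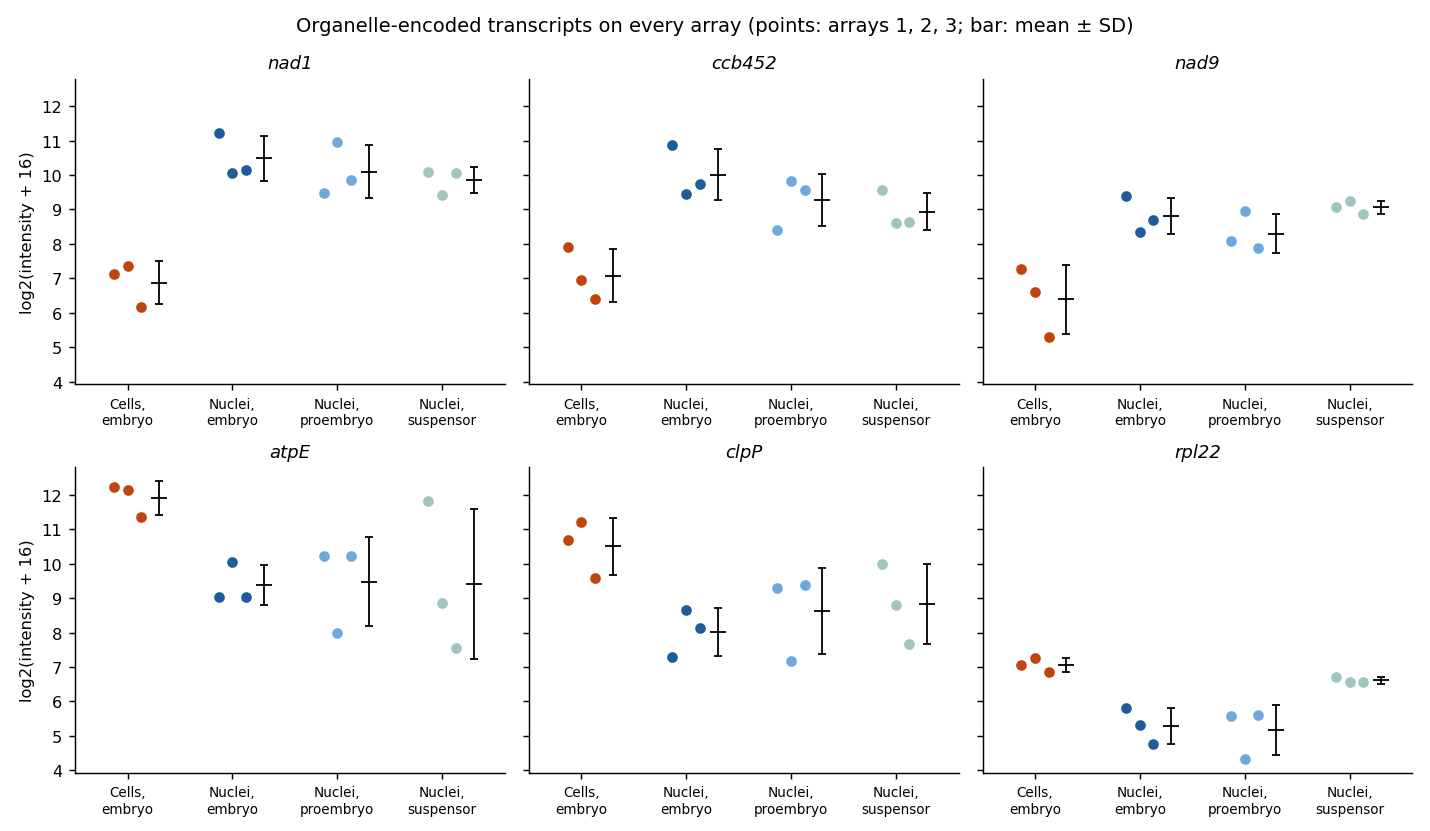
Level (log2(intensity + 16)) of 3 mitochondrion-encoded genes (nad1, ccb452, nad9) and 3 plastid-encoded genes (atpE, clpP, rpl22) on each array, with the mean and SD of 3 arrays beside the points. The mitochondrial genes are lower in cells than on all 9 nuclear arrays, and the suspensor nuclei spread widely for atpE and clpP.

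Genes of secreted signalling and cysteine-rich peptides formed the nuclear-encoded list with the most lower calls. Of 36 with a symbol on the array 18 were measured, and 7 (38.9%) were lower in cells and none higher. The median was -1.04 beside -0.01 and 3.95% called lower over all genes, and 16 of the 18 values were negative. THI2.1 and LCR69, described above, belong here. RALFL18, of a family of secreted peptides that act on receptor kinases, stood at 7.81, 8.48 and 7.92 in cells and at 10.27, 10.14 and 10.51 in nuclei, a difference of -2.23 (SE 0.27, adjusted p = 0.00121). The whole-embryo nuclei varied little, while proembryo nuclei read 8.79, 10.74 and 8.79, and against them the adjusted p was 0.113. The family members RALFL32 (-1.75, SE 0.34), RALFL22 (-1.39, SE 0.25) and RALFL24 (-1.32, SE 0.25), and CLE41 (-1.53, SE 0.35), whose peptide acts in vascular stem cells, passed too and are named after their values were seen.

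RALFL34, which acts in root branching, read 11.28, 10.93 and 11.90 in cells against 11.68, 11.86 and 11.55 in nuclei, and LCR24 12.30, 12.47 and 11.63 against 11.44, 11.75 and 11.83, with overlapping groups in both. Over the refits with 1 array left out the list had 2 to 8 lower calls and a median of -1.32 to -0.98. RALFL22 lost its call without nuclear array 1 (adjusted p 0.0513 at most, differences of -1.51 to -1.26), RALFL24 without nuclear array 1, nuclear array 3 or cell array 2 (up to 0.0715, -1.43 to -1.19), RALFL32 without any 1 nuclear array or cell array 2 (up to 0.0867, -2.10 to -1.50) and CLE41 without cell array 2 (up to 0.0536, -1.72 to -1.21). CLE41 was measured in only 3 of these refits.

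Among the auxin genes with a symbol 6 of 18 were measured and 2 were lower in cells, with a median of -0.86, beside 3.95% called lower over all genes. GH3.3 was one of them, and YUC4, which makes auxin from tryptophan-derived precursors, was the other, at 7.07, 7.16 and 7.78 against 8.47, 8.40 and 8.44 (-1.10, SE 0.27, adjusted p = 0.0339). The suspensor nuclei, at 7.45, 7.18 and 7.42, stood with the cells rather than with the whole-embryo nuclei. The call of YUC4 held only without cell array 3, and its difference ran from -1.32 to -0.97 with adjusted p up to 0.148. IAA18, a repressor of auxin response, differed by 0.36 (SE 0.27) and did not pass.

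Several families of nuclear genes held calls in both directions, beside 2.44% called higher and 3.95% called lower over all genes. Among sugar transporters of the SWEET and tonoplast families, 10 measured, SWEET9 was higher and SWEET4 lower, the latter at 6.58, 6.64 and 6.56 in cells against 8.64, 8.86 and 8.34 in nuclei (-2.02, SE 0.25, adjusted p = 0.00157). Its cell arrays agreed within 0.1 log2 units and lay far below the nuclei. Of the 8 tetraspanins, TET10 was higher and TET8 (-1.42, SE 0.36) and TET9 (-1.40, SE 0.31) were lower. Of 10 expansins and xyloglucan endotransglucosylases, EXPA21 was higher and XTH16, which remodels xyloglucan, was lower by -1.52 (SE 0.28). Of 16 serine carboxypeptidase-like genes, SCPL45 and scpl47 were higher and scpl41 and SCPL43 (-2.15, SE 0.37) lower, with a median of 0.06. TET8 held its call only without cell array 1 (differences of -1.84 to -1.07, adjusted p up to 0.151). TET9 lost it without any 1 nuclear array or cell array 2 (-1.58 to -1.22, up to 0.112), XTH16 without nuclear array 2 or 3 (-1.71 to -1.42, up to 0.0632) and SCPL43 without nuclear array 3 (-2.36 to -1.75, up to 0.0562).

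**Figure D4:**
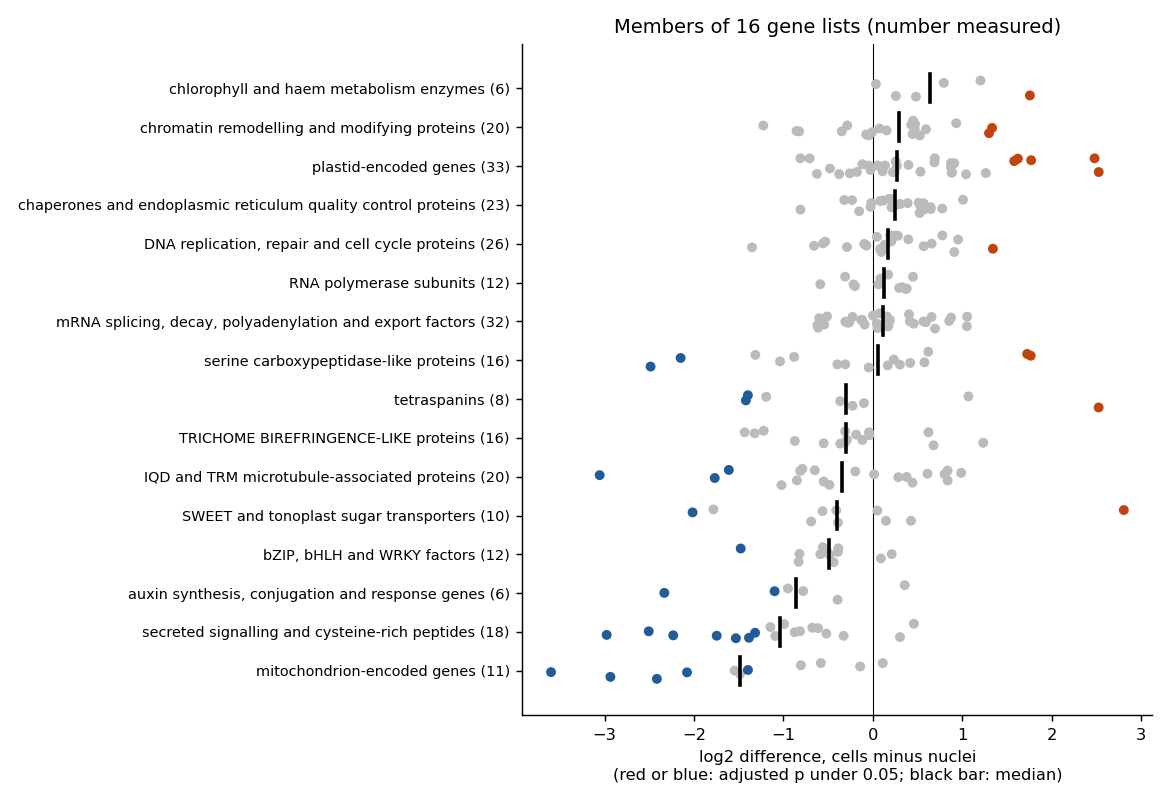
Difference between cellular and nuclear RNA (log2, cells minus nuclei) of each measured member of 16 gene lists, with the median as a black bar and members past the threshold in red (higher) or blue (lower). The mitochondrial and peptide lists lie furthest to the left, with medians of -1.49 and -1.04, and the lists of RNA polymerase subunits and mRNA-processing factors lie near 0.

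RNA polymerase subunits, mRNA factors and histones had medians close to that of all genes. None of 12 RNA polymerase subunits (median 0.13), 32 factors of mRNA splicing, decay, polyadenylation and export (median 0.12) or 7 histones (median 0.16) passed the threshold. The first pair of medians changed sign with some arrays left out. Over all genes 6.38% passed in either direction, so the absence of calls, or a few calls, in lists of this size says little. HTR12, the centromeric histone H3, read 7.67, 8.03 and 8.71 in cells against 7.03, 7.52 and 7.02 in nuclei (0.94, SE 0.31, adjusted p = 0.0937), and the linker histone HIS1-3 read 4.76, 5.39 and 5.84 against 6.85, 6.60 and 7.06 (-1.50, SE 0.47, adjusted p = 0.0772). The groups did not overlap for either gene, as for 28.6% of all probe sets. Of 20 chromatin proteins, CHR23, a SNF2 remodeller, and 3xHMG-box1, which binds mitotic chromosomes, were higher by 1.33 (SE 0.30, adjusted p = 0.0256) and 1.3 (SE 0.32, adjusted p = 0.034), and 1 of 26 replication and cell cycle genes, the primase subunit POLA3, by 1.34 (SE 0.33, adjusted p = 0.036). These 3 calls were each lost in at least 4 of the 6 refits with 1 array left out. CHR23 lost it without nuclear array 1, nuclear array 2, cell array 2 or cell array 3 (differences of 1.2 to 1.54, adjusted p up to 0.134), 3xHMG-box1 without any array but cell array 1 (0.99 to 1.49, up to 0.139) and POLA3 without any 1 nuclear array or cell array 2 (0.98 to 1.58, up to 0.147).

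Other lists of general cell functions varied in their calls, beside 6.38% over all genes. Among 32 trafficking genes TPLATE, a part of the endocytic machinery, passed, at 8.43, 8.90 and 8.71 in cells against 7.52, 7.17 and 7.29 in nuclei (1.35, SE 0.25, adjusted p = 0.0104). Suspensor nuclei read 9.43, 7.39 and 6.94 and so overlapped the cells, and its call was lost without nuclear array 2, nuclear array 3 or cell array 2 (differences of 1.24 to 1.48, adjusted p up to 0.0677). Against proembryo nuclei it differed by 0.75 (adjusted p = 0.193), and with all 12 arrays in the fit its adjusted p was 0.0904, so both settings ended the call. Of 25 ubiquitin genes 4 passed (16.0%), with a median of 0.02. The conjugating enzyme UBC16 and the ubiquitin protease UBP23 were higher, by 1.37 (SE 0.28) and 1.07 (SE 0.28), and the conjugating enzyme UBC28 and the RING protein ATL8 lower, by -1.10 (SE 0.27) and -1.64 (SE 0.43, and by -1.07 with a pseudocount of 64). UBC16 lost its call without nuclear array 1 or 2 (differences of 1.31 to 1.43, adjusted p up to 0.0603) and UBC28 without any 1 nuclear array or cell array 2 (-1.34 to -0.94, up to 0.163). UBC16 was measured only in the 3 refits without a nuclear array, so leaving out a cell array was not tested for it. ATL8 (-2.08 to -1.26, up to 0.169) and UBP23 (0.94 to 1.24, up to 0.171) held theirs only without cell array 1, and UBP23 did not pass against proembryo nuclei or with all 12 arrays either (adjusted p = 0.0843 and 0.137). None of 23 chaperones passed, although 17 of their values were positive (median 0.25), and none of 16 TRICHOME BIREFRINGENCE-LIKE genes, which acetylate wall polymers, with a median of -0.30. All 6 enzymes of chlorophyll and haem metabolism had positive values (median 0.64), of which NOL passed. CHLI2, a subunit of magnesium chelatase, read 7.64, 7.30 and 7.26 in cells against 6.74, 6.17 and 5.69 in nuclei (1.2, SE 0.35, adjusted p = 0.064). The 9 nuclear-encoded photosystem genes had a median of 0.00 and no call.

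Calls were also counted by the genomic span of a gene, its length from start to end with introns, taken from RefSeq (assembly TAIR10.1) for 6381 nuclear protein-coding genes. In the shortest quartile, of 78 to 1712 bp, 137 of 1597 genes (8.58%) were lower in cells and 46 (2.88%) higher, with a median of -0.14. In the longest quartile, of 3209 to 26499 bp, 25 of 1595 (1.57%) were lower and 34 (2.13%) higher, with a median of 0.06. The share of lower calls thus fell with span and that of higher calls varied little. Across these genes the difference and the span had a Spearman correlation of 0.145, a weak relation over genes that share the same 6 arrays.

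The excess of lower calls among short genes was found at both levels of expression. In the brighter genes the shares were 7.32% in the shortest and 1.91% in the longest quartile, and in the dimmer genes 10% and 1.28%. Without the peptide list the shortest quartile held 8.29%. These splits were chosen after the data were seen and reuse the same calls. The part of expression level or of the peptide genes in the relation was not tested. Over the refits with 1 array left out the share of the shortest quartile ran from 1.68% without nuclear array 3 to 13% without cell array 1. That of the longest quartile ran from 0.26% to 3.68% for the same arrays. Genes with 1 annotated transcript were called lower in 5.32% of 3365 cases and those with 2 or more in 2.09% of 3016. The array controls and the embryo stage differed between the groups as given above, and their part in the relation with span was not tested. Nor was that of the 3′ excess seen on the arrays of both groups.

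**Figure D5:**
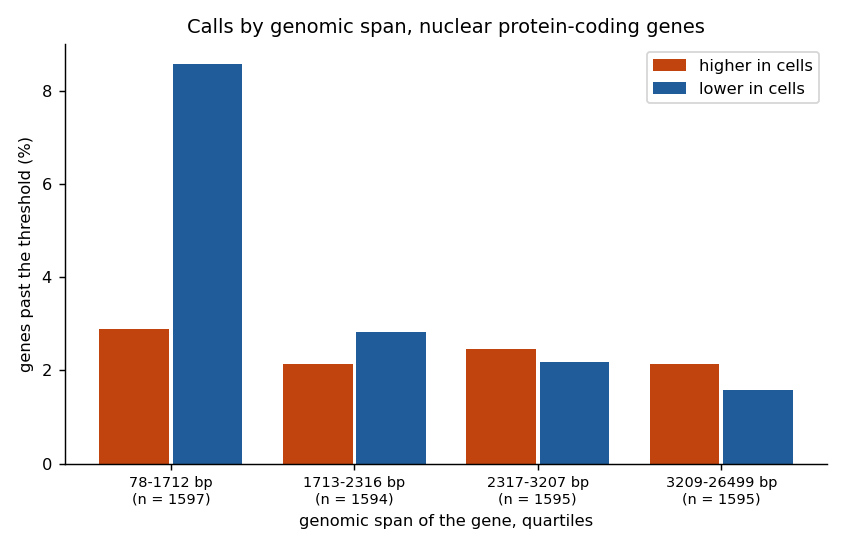
Share of nuclear protein-coding genes (%) called higher (red) or lower (blue) in cellular than in nuclear RNA, for quartiles of genomic span (bp) of 1594 to 1597 genes each. Lower calls drop from 8.58% in the shortest quartile to 1.57% in the longest, and higher calls stay between 2.13% and 2.88%.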

How the data were processed

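The authors deposited 1 table of linear intensity values for 22810 probe sets of the ATH1 array and 12 arrays. Per the submitters' processing notes, MAS5 and affy 1.32.1 were used, and the deposited intensity values have a trimmed mean (2% at each end) of 200.02 on every array. The genome build behind the probe sets is not given in the sources used here. The platform annotation gave 1 gene for 13513 of 22746 probe sets outside the array's own controls, several for 503 and none for 8730. Of those with 1 gene, 13436 matched RefSeq (TAIR10.1), used for symbols, spans and transcript numbers.

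Values were taken as log2(intensity + 16). Probe sets above their array's median on at least 3 of the 6 arrays entered limma 3.58.1 (R 4.3.3; lmFit and eBayes with an intensity trend), with the group as the only term and Benjamini-Hochberg adjustment over 11867 probe sets. The fit was tested on simulated data. A gene was represented by its probe set with the highest mean. No depth applies to arrays, and their number limits the precision. Single values were compared by exact two-sided permutation tests.

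The genes named were, in each direction, the 12 largest called differences among nuclear genes with a symbol and no overlap between groups, the 4 largest among genes with a locus tag only, and up to 3 per gene list (largest called, or else lowest p), plus cell type markers. The members and lists were chosen with earlier results of these data known, so lists are described by counts and medians and were not tested. Apart from the organelle-encoded genes and the chromosome 2 range, list members were found by gene symbol, which 1580 probe sets had. Family members without a symbol are missing from the lists and from their counts. Markers were found by symbol or synonym. Alternatives varied the pseudocount, filter, scaling, variance model, arrays fitted, nuclear group and replicate block, and left out each array in turn. Table columns were matched to samples by title. Sequences were not used here.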

Additional observations from a re-analysis of the deposited data

How the results depend on the processing

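Of 58 named genes past the threshold none changed direction under any of the 16 alternative settings in which it was measured. Where the groups lay apart, leaving out an array or changing the pseudocount could not turn the sign, so this is no separate support. The 803 called probe sets became 462 without a filter on dim probe sets and 419 when a probe set had to lie above the median of all 6 arrays. With 1 array left out the count ran from 205 (without nuclear array 1) to 1287 (without cell array 1), at 260 and 218 without nuclear arrays 2 and 3, 249 without cell array 2 and 794 without cell array 3. The share called higher, 40.1% in all, was 51.2%, 53.1% and 53.7% without nuclear arrays 1, 2 and 3 and 22.1% without cell array 2. With the replicate number as a block, 774 probe sets passed, of which 673 were shared, but same-numbered arrays did not deviate together (r = 0.0873, -0.0176 and -0.105), so the numbers were not taken to pair the arrays. Of the 58 named calls, 19 were lost without the filter, 9 of 56 measured against proembryo nuclei, 5 with a pseudocount of 1, 5 without the intensity trend, 3 under the block, 2 with quantile normalization, 2 with all 12 arrays and none with a pseudocount of 64 or median centring. Of 51 measured, 23, 21 and 26 were lost without nuclear arrays 1, 2 and 3, and of 50 measured, 2, 20 and 4 without cell arrays 1, 2 and 3. Signs turned only for values that did not pass. With a pseudocount of 64 ARR15 was at -0.05479. Without the filter the medians of glutathione S-transferases and AGAMOUS-like factors were -0.2077 and -0.01649. Against proembryo nuclei OTP43 was at 0.2932, IKU1 at -0.1694, SWEET11 at -0.3411 and DME at 0.4142. With 1 array left out, gene and list values that turned ranged from -0.5008 to 0.05607 for TUB6, -0.6611 to 0.2263 for ARR15, -0.3684 to 1.618 for PHV, -0.2472 to 0.2733 for SWEET11, -0.08637 to 0.6988 for IKU1, -0.3061 to 0.09136 for DME, -0.03766 to 0.5182 for ACT11, -0.2497 to 0.5445 for DI21, -0.7804 to 0.1821 for RR22 and -0.02824 to 0.3251 for the AGAMOUS-like median. Other list medians near 0 changed sign too: -0.0908 to 0.4419 for RNA polymerase subunits, -0.05429 to 0.2379 for mRNA-processing factors, -0.0632 to 0.1859 for serine carboxypeptidase-like genes, -0.04781 to 0.1943 for trafficking genes, -0.0162 to 0.09209 for ubiquitin genes and -0.1487 to 0.3307 for nuclear-encoded photosystem genes, beside -0.02473 to 0.02091 over all genes. The cause of these turns was not tested. Settings for the calls by genomic span were chosen after seeing the data, and the shortest quartile held the larger share of lower calls in each of them. Signal over background could not be judged, since the table has no detection calls.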

Other observations

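Other genes with a symbol passed the threshold outside the lists above and were chosen after their values were seen. EMS1, a receptor kinase known for specifying anther cells, stood at 8.00, 7.93 and 7.20 in cells and at 9.50, 9.86 and 9.53 in nuclei, a difference of -1.92 (SE 0.29, adjusted p = 0.0036 by limma). POL, a protein phosphatase of stem cell maintenance, read 9.73, 9.73 and 10.10 against 8.22, 8.85 and 8.27, a difference of 1.41 (SE 0.27, adjusted p = 0.0122). AGO7, an Argonaute that makes trans-acting small RNAs, read 7.77, 8.15 and 8.98 against 6.79, 7.27 and 6.75, a difference of 1.37 (SE 0.33, adjusted p = 0.0339). The groups did not overlap for any of the 3 genes, as for 28.6% of all probe sets, and for genes chosen because they passed this adds no support. EMS1 passed in all 6 refits with 1 array left out, whereas POL lost its call without nuclear array 1, nuclear array 3 or cell array 2 (adjusted p up to 0.0769, differences of 1.28 to 1.61) and AGO7 held it only without cell array 1 (up to 0.13, 1.03 to 1.63). CaS, a calcium-binding protein of thylakoids, was higher in cells by 1.23 (SE 0.28) and lost its call without any 1 nuclear array or cell array 2 (up to 0.118, 1.03 to 1.41). Against proembryo nuclei POL (0.76, adjusted p = 0.135), AGO7 (1.07, adjusted p = 0.0888) and CaS (0.82, adjusted p = 0.101) did not pass.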
